A study of Mus musculus with 6 samples.

Results

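Col10a1, Mmp13, Panx3, Mef2c, Ihh, Pthlh, Pth1r, Ptch1, Gli1 and Hhip mark the hypertrophic chondrocyte or carry the Indian hedgehog and PTHrP signals that pace its appearance. These 10 genes were followed in knee tissue of mice lacking Frzb, at every probe set of the Affymetrix Mouse Genome 430 2.0 array that the platform annotation assigns to 1 of them alone. In all, 9 of the 10 genes had such a probe set and 19 probe sets were found, out of 13817 genes and 30618 probe sets tested. Pthlh, which encodes PTHrP, had none and has no value here.

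The study compared articular cartilage with its subchondral bone, dissected as a single piece from the proximal tibia, of Frzb-/- and wild-type mice. Frzb encodes a secreted frizzled-related protein that binds Wnt ligands outside the cell, and the knockout was global and backcrossed to C57Bl/6J. Per the labels all animals were male C57Bl/6J mice of 6 weeks, with the tissue snap frozen, and per the methods each array held the RNA of 1 joint of 1 mouse. The piece was detached at the growth plate and, per the study, took in the upper growth plate and bone marrow. Hypertrophic cells of the growth plate could thus contribute. The Frzb-/- group was animals 14 and 17 and the wild-type group was animals 6-1, 8-1 and 9-1. Animal 6 is labelled Frzb-/- as well. It is shown apart because, per the study, 1 presumed knockout was later genotyped as heterozygous and left out of the comparison. The number of that mouse was not given. Frzb itself read 7.02 and 6.42 in Frzb-/- animals 14 and 17, 6.93 in animal 6, and 10.02, 10.79 and 10.16 in wild-type animals, at the brighter of its 2 probe sets (log2 RMA values, as are all levels below). The difference was -3.61 on the log2 scale (SE 0.27, adjusted p = 0.000994). On Frzb, animal 6 thus sat with the Frzb-/- animals, whereas over all probe sets its Pearson correlation was 0.9827 to 0.9906 with the wild-type arrays and 0.9401 to 0.957 with the Frzb-/- arrays.

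In a growth plate, chondrocytes divide in columns, leave the cell cycle as prehypertrophic cells, and then swell into hypertrophic cells whose matrix mineralises before bone replaces it. Prehypertrophic cells secrete Ihh, which acts through Ptch1 and Smo on neighbouring cells and raises PTHrP near the joint surface. PTHrP, through its receptor Pth1r, holds chondrocytes in the dividing state, so that the pair of signals sets where hypertrophy begins. Adult articular chondrocytes normally stay out of this programme, and hypertrophic markers in joint cartilage are widely studied in osteoarthritis.

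The genes of the collagenase Mmp13 and of Col10a1, the collagen of hypertrophic matrix, are both known targets of Runx2, a factor that drives hypertrophy. Their promoters are shown because they carried the clearest group difference and the widest spread between mice among the hypertrophic genes at their brightest probe sets. Each is the 250 bases before the RefSeq start site on the plus strand of GRCm38.p6, at chr9:7272264-7272513 for Mmp13 and chr10:34389731-34389980 for Col10a1. Capitals mark a match to the RUNX motif TGTGGT, read here as its reverse complement.

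Mmp13 promoter: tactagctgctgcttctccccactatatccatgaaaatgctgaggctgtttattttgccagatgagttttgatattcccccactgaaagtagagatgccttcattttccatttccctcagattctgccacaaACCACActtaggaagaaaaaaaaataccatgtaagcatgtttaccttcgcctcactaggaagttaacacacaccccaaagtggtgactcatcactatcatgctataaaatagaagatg

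Col10a1 promoter: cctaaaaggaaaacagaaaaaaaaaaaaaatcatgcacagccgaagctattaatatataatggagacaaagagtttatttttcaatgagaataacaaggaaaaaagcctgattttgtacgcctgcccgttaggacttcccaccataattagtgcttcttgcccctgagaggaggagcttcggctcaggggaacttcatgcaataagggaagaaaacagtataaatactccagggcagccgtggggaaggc

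The Mmp13 match began 118 bases before the start site, and the Col10a1 window held none. RefSeq gave 12 such windows for 8 of the 10 genes, with Panx3 and Gli1 not among them. TGTGGT occurred on either strand in 1 of the 12, against 14.0% of 32851 promoter windows of the same length. The GLI motif GACCACCCA occurred in 0 of the 12, against 0.225% of all windows, as did the MEF2 consensus motif, against 0.140%. No binding was measured, so these matches only describe the letters.

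The question put to the arrays was whether loss of Frzb changed the level of these genes at this age. A probe set was called changed when the limma adjusted p was below 0.01 and the log2 difference between the group means was beyond 1. By that rule 0 of the 19 probe sets were called, against 7.43% of all probe sets (2.34% higher and 5.09% lower in Frzb-/-). At an unadjusted p below 0.05 there were 3, from Mmp13, Panx3 and Gli1, whereas 39.2% of all probe sets reached that level. At an adjusted p below 0.05 with no limit on size there were 2, from Mmp13 and Panx3, both higher in Frzb-/-, against 26.5% of all probe sets (11.7% higher). The Frzb-/- mean lay above the wild-type mean at 13 of the 19 and below it at 6, and 51.7% of all probe sets lay above. With the probe sets of a gene averaged, 0 of the 9 measured genes were called, against 8.42% of all genes. Without moderation of the variances, 1 of the 19 had an unadjusted p below 0.05, against 32.1% of all probe sets, and with animal 6 counted as Frzb-/- 2 of the 19 did, against 11.5%.

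Frzb-/- and wild-type values did not overlap at 4 of the 19, in Mmp13, Panx3, Pth1r and Gli1, each with both Frzb-/- animals higher. Among all probe sets 55.6% did not overlap, 27.5% with Frzb-/- higher. For 12 of the 19 the 95% interval lay wholly within a log2 difference of 1 in either direction, against 77.2% of all probe sets. For the other 7 a difference beyond 1 was within the interval, so with 2 and 3 mice the data do not bound them that tightly. In tissue of this kind, fewer cells of a type and less RNA per cell cannot be told apart.

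**Figure D1:**
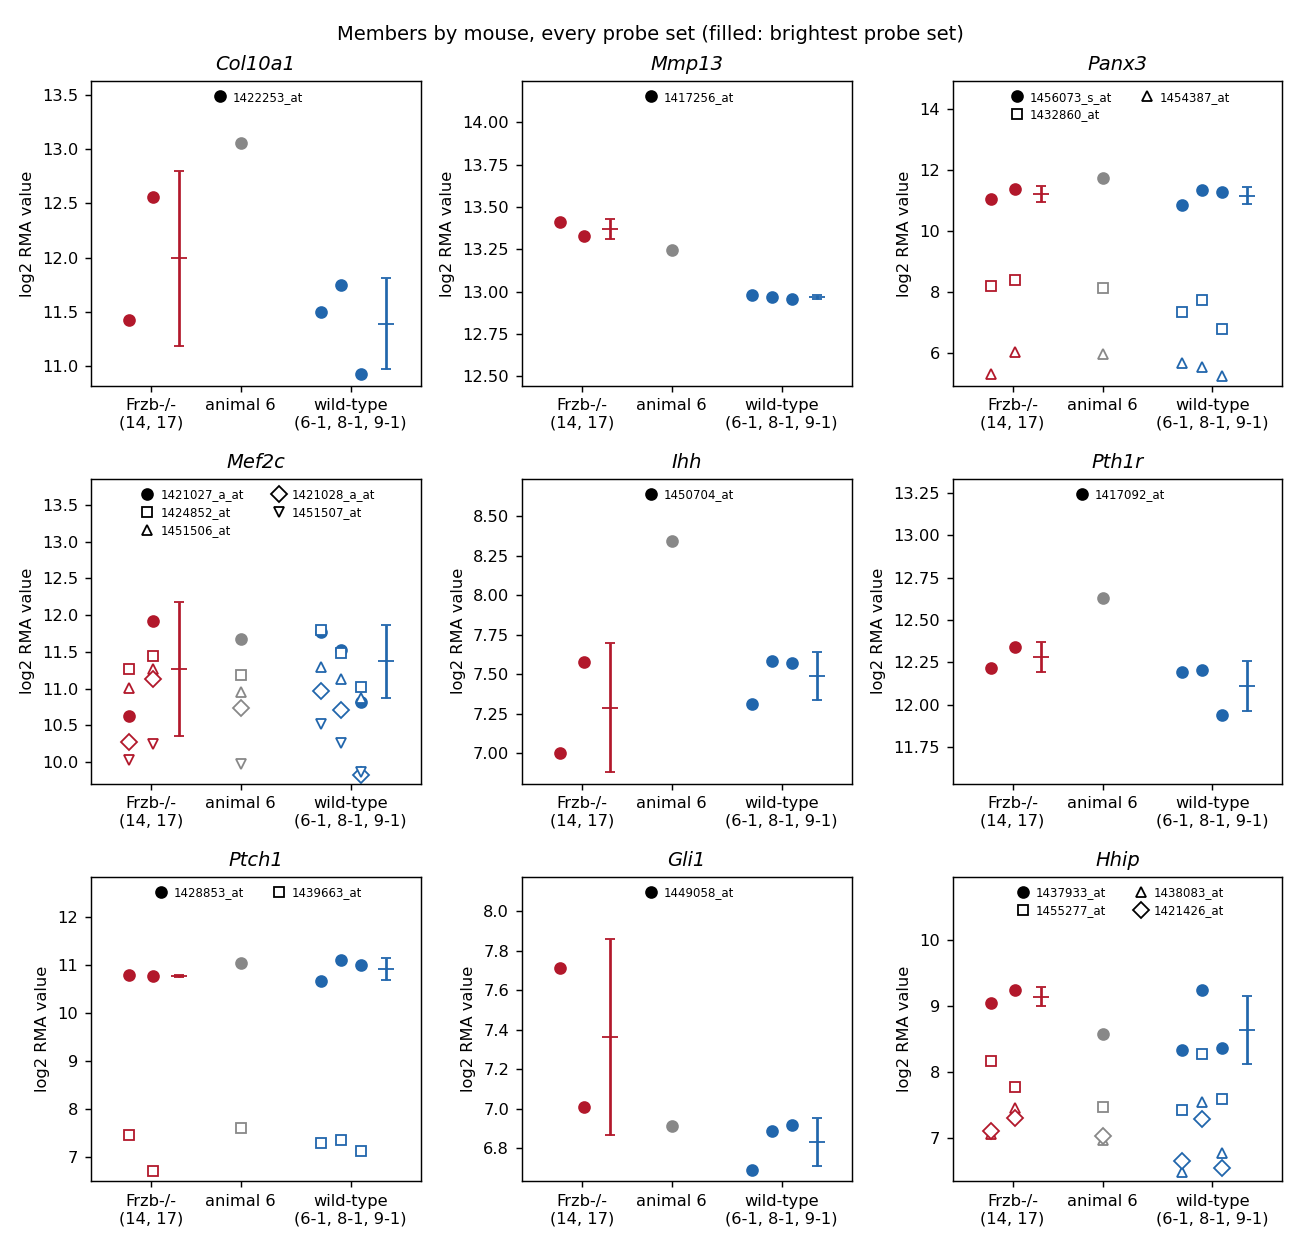
Log2 RMA level (vertical axes) of each of the 9 measured genes in each mouse, with Frzb-/- animals 14 and 17 on the left, animal 6 in the middle and the 3 wild-type animals on the right. Filled points are the brightest probe set of a gene, with the group mean and SD, and open points are its other probe sets. Mmp13 stands at 13.41 and 13.33 in Frzb-/- animals, above 12.98, 12.97 and 12.96 in wild-type animals, while Col10a1 reaches 13.05 in animal 6.

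Col10a1 encodes type X collagen, which in cartilage is made almost only by hypertrophic chondrocytes. It read 11.42 and 12.56 in Frzb-/- animals 14 and 17, 13.05 in animal 6, and 11.50, 11.74 and 10.93 in wild-type animals 6-1, 8-1 and 9-1. Animal 17 was above every wild-type animal and animal 14 lay among them, so that the groups overlapped. The means were 11.99 ± 0.81 in Frzb-/- (SD, n = 2) and 11.39 ± 0.42 in wild-type mice (SD, n = 3). The difference of 0.60 had a 95% interval of -0.26 to 1.47 and was not called (adjusted p = 0.270). It moved with the mouse left out, at 0.03 without animal 17 and 1.17 without animal 14. The gap of 1.14 between the 2 Frzb-/- animals was larger than the difference between the group means.

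Mmp13, a collagenase that hypertrophic chondrocytes and osteoblasts use to cut fibrillar collagen, had the smallest standard error of the 19 probe sets. Its values were 13.41 and 13.33 in Frzb-/- animals, 13.25 in animal 6, and 12.98, 12.97 and 12.96 in wild-type animals. All Frzb-/- values stood above all wild-type values, with animal 6 between them. The difference of 0.40 (SE 0.11, 95% interval 0.14 to 0.67), a 1.32-fold higher level with an interval of 1.10 to 1.59, had an adjusted p of 0.0381. That size was below the limit for a call. Leaving out any 1 of the 5 mice gave adjusted p values of 0.0793 to 0.123, and with animal 6 counted as Frzb-/- the difference was 0.36 (adjusted p = 0.428).

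Panx3 encodes pannexin 3, a channel protein of prehypertrophic and hypertrophic chondrocytes and of osteoblasts, and its 3 probe sets did not behave alike. The brightest, 1456073_s_at, read 11.03 and 11.38 in Frzb-/- animals, 11.73 in animal 6, and 10.84, 11.33 and 11.28 in wild-type animals. There the groups overlapped and the difference was 0.05 (SE 0.19, 95% interval -0.41 to 0.51, adjusted p = 0.864). Probe set 1432860_at read 8.18 and 8.39 in Frzb-/- animals, 8.13 in animal 6, and 7.33, 7.72 and 6.77 in wild-type animals. Here every animal labelled Frzb-/- was above every wild-type animal. The difference of 1.01 (SE 0.26, 95% interval 0.38 to 1.64) passed the limit on size but not that on the adjusted p, which was 0.0316 and ran from 0.0223 to 0.158 as single mice were left out. The dimmest, 1454387_at, stood at 5.30 and 6.03 in Frzb-/- animals, 5.95 in animal 6, and 5.65, 5.52 and 5.24 in wild-type animals. It spread almost as widely within the Frzb-/- pair as over all mice, with a difference of 0.20 (adjusted p = 0.578). A change of Panx3 therefore rested on 1 probe set that the brightest did not share.

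Mef2c, a transcription factor that in the mouse is needed for chondrocyte hypertrophy and switches on Col10a1, had 5 probe sets with differences of -0.10 to 0.20 and adjusted p values of 0.728 to 0.892. The brightest, 1421027_a_at, read 10.62 and 11.91 in Frzb-/- animals, 11.68 in animal 6, and 11.77, 11.52 and 10.82 in wild-type animals. Animal 14 and wild-type animal 9-1 were the lowest, and the 2 Frzb-/- animals lay at the opposite ends of the range. Probe set 1421028_a_at had the same 2 mice lowest, at 10.27 and 11.13 in Frzb-/- animals, 10.74 in animal 6, and 10.97, 10.71 and 9.83 in wild-type animals. The range over all 6 mice was 1.29 and 1.31 at these 2 probe sets and 0.42 to 0.77 at the other 3. Mef2c is also a factor of B lymphocytes and muscle. The mean level of 10 B cell genes differed between the groups while that of 11 skeletal muscle genes overlapped (values with the marker lists). Their part in the Mef2c values was not tested.

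Ihh, the signal from prehypertrophic cells, read 7.00 and 7.58 in Frzb-/- animals, 8.34 in animal 6, and 7.31, 7.58 and 7.57 in wild-type animals. Animal 14 was the lowest of all mice, animal 17 lay with the wild-type animals, and animal 6 was the highest. The difference was -0.20 (SE 0.19, 95% interval -0.66 to 0.26, adjusted p = 0.485). Counting animal 6 as Frzb-/- turned its sign, to 0.15.

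Pth1r, the receptor that receives PTHrP on chondrocytes and also serves parathyroid hormone on osteoblasts, read 12.22 and 12.34 in Frzb-/- animals, 12.63 in animal 6, and 12.19, 12.20 and 11.94 in wild-type animals. The Frzb-/- values did not overlap with those of wild-type animals, yet animal 14 exceeded the highest of them only slightly. The difference of 0.17 (SE 0.14, 95% interval -0.15 to 0.49) was not called (adjusted p = 0.399), and it ran over 0.0830 (without animal 9-1) to 0.23 (without animal 14) as single mice were left out.

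Ptch1 is the hedgehog receptor and at the same time a gene that hedgehog signalling switches on. Its brighter probe set, 1428853_at, read 10.78 and 10.76 in Frzb-/- animals, 11.04 in animal 6, and 10.66, 11.10 and 11.00 in wild-type animals. Both Frzb-/- values fell inside the wild-type range, and the difference was -0.15 (SE 0.16, 95% interval -0.52 to 0.23, adjusted p = 0.529). The dimmer, 1439663_at, read 7.46 and 6.71 in Frzb-/- animals, 7.60 in animal 6, and 7.29, 7.36 and 7.13 in wild-type animals. Here animal 14 was above and animal 17 below all wild-type animals, and the difference was -0.17 (adjusted p = 0.600).

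Gli1, a transcription factor whose own gene is a standard readout of hedgehog signalling, read 7.71 and 7.01 in Frzb-/- animals, 6.91 in animal 6, and 6.69, 6.89 and 6.92 in wild-type animals. Both Frzb-/- animals were above all wild-type animals, animal 14 by a wide margin and animal 17 by little. The difference of 0.53 had a 95% interval of 0.03 to 1.04 and an adjusted p of 0.112. It was 0.88 without animal 17 and 0.18 without animal 14.

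Hhip, a membrane protein that binds hedgehog ligands as a decoy and is induced by them, had 4 probe sets with differences of 0.20 to 0.50, all positive and none called (adjusted p = 0.236 to 0.608). The brightest, 1437933_at, read 9.04 and 9.24 in Frzb-/- animals, 8.57 in animal 6, and 8.32, 9.23 and 8.36 in wild-type animals. Both Frzb-/- animals were above wild-type animals 6-1 and 9-1, while wild-type animal 8-1 stood level with animal 17. That wild-type mouse was the highest of its group at all 4 probe sets, at 9.23, 8.27, 7.55 and 7.30, and the groups overlapped at each. As single mice were left out, the difference ran over 0.34 to 0.79 at 1437933_at (adjusted p = 0.0259 without animal 8-1), 0.0102 to 0.46 at 1455277_at, 0.0953 to 0.63 at 1438083_at and 0.23 to 0.60 at 1421426_at. Of the 3 hedgehog targets, Ptch1 was negative at both probe sets and Gli1 and Hhip positive at all 5, but none was called. The sign also turned at Ptch1 1439663_at (0.20 without animal 17) and at Hhip 1455277_at (-0.0333 with array weights).

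**Figure D2:**
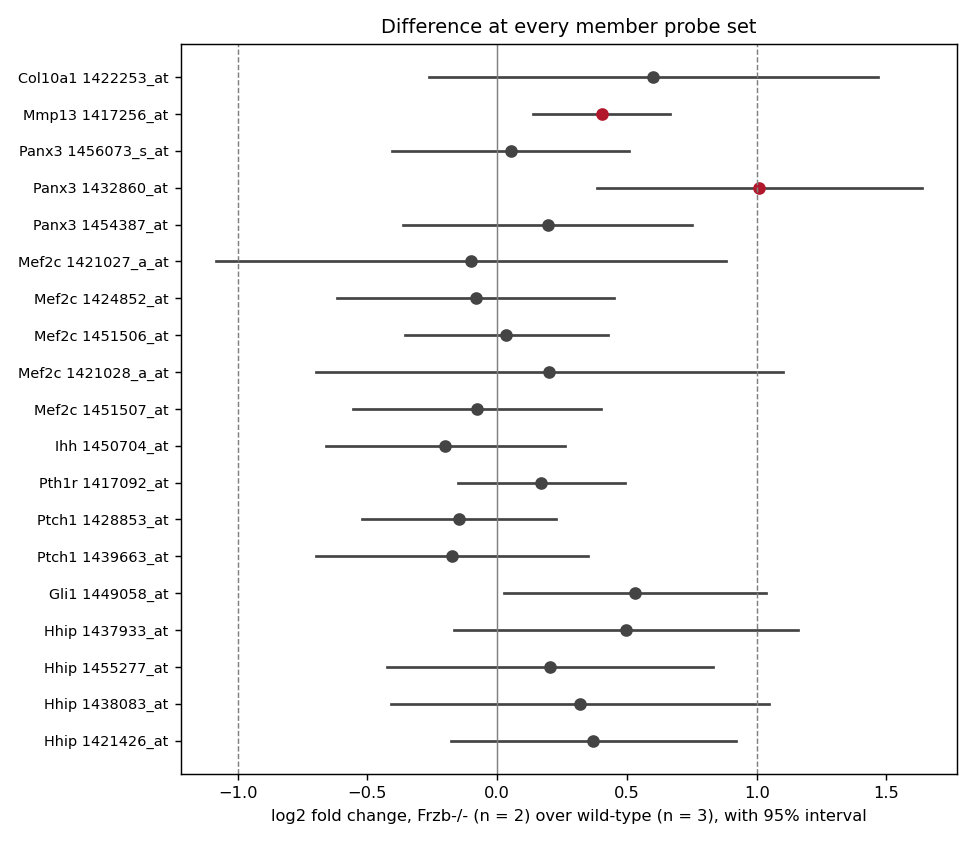
Log2 difference between Frzb-/- animals 14 and 17 and the 3 wild-type animals (horizontal axis) for each of the 19 probe sets, with its 95% interval, and red where the adjusted p was below 0.05. Mmp13 (0.40) and Panx3 1432860_at (1.01) are the 2 red points, and 7 of the intervals reach past 1 in either direction.

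Over genes at their brightest probe set, the median log2 difference was 0.23 for the 4 hypertrophic genes, -0.02 for Ihh and Pth1r, and 0.50 for the 3 hedgehog targets, against 0.02 over all probe sets. These medians each rest on a few genes and were given no test. As single mice were left out, that of the hypertrophic genes ran over -0.05 to 0.45, that of Ihh and Pth1r over -0.19 to 0.16, and that of the hedgehog targets over 0.18 (without animal 14) to 0.56.

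Animal 6 was set against the wild-type animals alone, and as a single mouse its own spread had to be taken as that of the other mice. For 5 of the 19 probe sets it was the highest of all 6 mice, at Col10a1, Panx3 1456073_s_at, Ihh, Pth1r and Ptch1 1439663_at, against 20.9% of all probe sets. It lay above every wild-type animal at 8 of the 19, where 34.4% of all probe sets did. The difference from the wild-type mean was 1.66 for Col10a1 (95% interval 0.57 to 2.76), 0.85 for Ihh (95% interval 0.27 to 1.43) and 0.52 for Pth1r. None of the 30618 probe sets was called in animal 6 by limma. In the 19, 5 had an unadjusted p below 0.05, where 7.18% of all probe sets did, and the adjusted p was 0.678 for Col10a1 and Ihh. The mean log2 level of 19 growth plate chondrocyte genes was also highest in animal 6, at 12.10. That level was 11.55 and 11.85 in the Frzb-/- animals and 11.57 to 12.05 in the wild-type animals. Its part in these values was not tested.

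Across mice, Col10a1 spanned 2.13 log2 units, and the genes with the closest pattern were sought by the root mean square difference of values over the 6 mice, each taken less its wild-type mean, among 13816 genes. They were Matn1 (0.309), which encodes the cartilage matrix protein matrilin 1, Cdkn1c (0.352), which encodes the cell cycle inhibitor p57, and Sdc4 (0.388), which encodes the surface proteoglycan syndecan 4. Matn1 read 9.47 and 9.92 in Frzb-/- animals, 10.71 in animal 6, and 8.96, 9.38 and 9.14 in wild-type animals. Cdkn1c read 10.82 and 11.24 in Frzb-/- animals, 11.67 in animal 6, and 10.35, 10.46 and 10.39 in wild-type animals. Both were highest in animal 6 and higher in Frzb-/- animals than in wild-type animals, without overlap, though neither was called. Sdc4, at 9.57 and 10.72 in Frzb-/- animals, 10.47 in animal 6, and 10.01, 10.08 and 8.87 in wild-type animals, had animals 17 and 6 highest. For Ihh the closest were Sele (0.127), the endothelial adhesion molecule E-selectin, Rhbdl2 (0.144) and Pla2g10 (0.177), a secreted phospholipase. For Gli1 they were Gm38462 (0.0691), Rhpn2 (0.0810) and Tead2 (0.0821), a transcription factor of the Hippo pathway. For the brightest Mef2c probe set they were Csnk2a1 (0.142), the catalytic subunit of casein kinase 2, Tsc22d3 (0.155), a glucocorticoid-induced gene, and 9230114K14Rik (0.156). A pattern over 6 mice is a weak description, and genes that vary little come close to others by this measure.

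**Figure D3:**
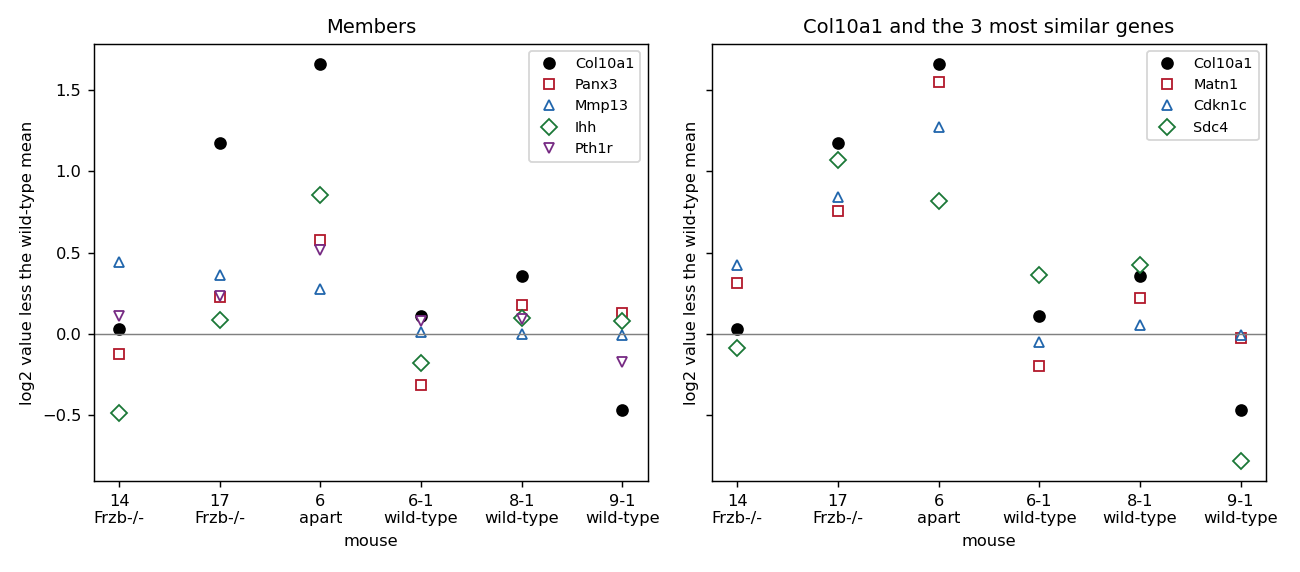
Log2 level of each mouse less the wild-type mean (vertical axis), with Frzb-/- animals 14 and 17 left of animal 6 and the 3 wild-type animals; on the left 5 members, on the right Col10a1 with the 3 genes of closest pattern. Animal 6 stands at 1.66 for Col10a1 and 0.85 for Ihh, the highest point of each, whereas Mmp13 is highest in animals 14 and 17.

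Genes around the same pathway were read from 3 further lists, each gene at its brightest probe set, where 9.05% of all 13817 genes were called (3.03% higher and 6.02% lower in Frzb-/-). In the list of other hedgehog components 17 of 19 genes had a probe set, and 3 rose and 0 fell, with a median difference of 0.70. An unadjusted limma p below 0.05 was reached by 12 of the 17, against 39.2% of all probe sets. That share was not counted over genes at their brightest probe set, so its basis differs from that of the list. The 3 were the co-receptors Cdon and Gas1, which help cells bind hedgehog ligands, and Gpr161, a receptor of the primary cilium that restrains the pathway. Cdon read 11.36 and 10.99 in Frzb-/- animals, 10.07 in animal 6, and 9.54, 10.24 and 9.75 in wild-type animals, a difference of 1.33 (SE 0.23, adjusted p = 0.00692). Gas1 read 12.91 and 12.96 in Frzb-/- animals, 12.19 in animal 6, and 11.73, 12.18 and 11.44 in wild-type animals, a difference of 1.15 (SE 0.21, adjusted p = 0.00963). Gpr161 read 7.23 and 6.96 in Frzb-/- animals, 6.28 in animal 6, and 5.79, 6.12 and 5.93 in wild-type animals, a difference of 1.14 (SE 0.15, adjusted p = 0.00297). In each of them animals 14 and 17 were above all other mice, and animal 6 lay closer to the wild-type animals. The largest differences not called were 0.96 for Stk36, a kinase that acts on GLI factors in the pathway, and 0.92 for Smo, the membrane protein that Ptch1 holds in check (adjusted p = 0.00503 and 0.00588). A dimmer probe set of Smo, 1427048_at, passed with 1.11. Whether these components differed from the targets Ptch1, Gli1 and Hhip was not tested. Of these 3 calls 0 were left without animal 6-1, 14 or 17, where 1804, 1861 and 432 of all 30618 probe sets were called, while Gpr161 was left without animal 9-1 and Cdon and Gas1 without animal 8-1. With animal 6 counted as Frzb-/-, or without moderation of the variances, 0 of all probe sets were called, so these settings say nothing of this list; the list median was 0.53 and 0.70 under them.

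In the list of other PTHrP pathway genes, 9 of 10 had a probe set and 1 rose and 0 fell, with a median of 0.31. This was Zfp521, a zinc finger protein that acts downstream of PTHrP in mouse chondrocytes and restrains Runx2. It read 10.05 and 10.08 in Frzb-/- animals, 9.06 in animal 6, and 8.82, 8.88 and 8.65 in wild-type animals, a difference of 1.28 (SE 0.12, adjusted p = 0.00124), and its call was lost without animal 17. The largest not called were 0.56 for Gna11 and 0.46 for Prkaca, a G protein subunit and the catalytic subunit of protein kinase A (adjusted p = 0.0202 and 0.0462). Gnas, the G protein subunit that Pth1r acts through, stood at 0.34 at its brightest probe set (means 13.69 in Frzb-/- and 13.35 in wild-type animals). The far dimmer 1427789_s_at of the same gene passed with 2.13 (means 6.80 in Frzb-/- and 4.67 in wild-type animals), a change that the brightest did not share. The study tabulated Gnas from these same arrays, so its presence in the list is no independent evidence of a direction.

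In the list of other genes of hypertrophy and mineralisation, 17 of 21 had a probe set and 0 were called by limma, with a median of 0.05. Runx2, Phospho1, Enpp1 and Spp1 had no such probe set and have no value here. An unadjusted limma p below 0.05 was reached by 5 of the 17, against 39.2% of all probe sets, dimmer ones included. Mmp14, a membrane-bound collagenase, differed by 0.89 (SE 0.11, adjusted p = 0.00258), below the limit on size, and its probe set 1416572_at passed with 1.22. Alpl, the alkaline phosphatase of mineralising cells, differed by 0.62 (adjusted p = 0.0234). The mean level of the list was 9.92 and 9.94 in Frzb-/- animals, 9.99 in animal 6, and 9.69 to 9.97 in wild-type animals, and so overlapped.

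**Figure D4:**
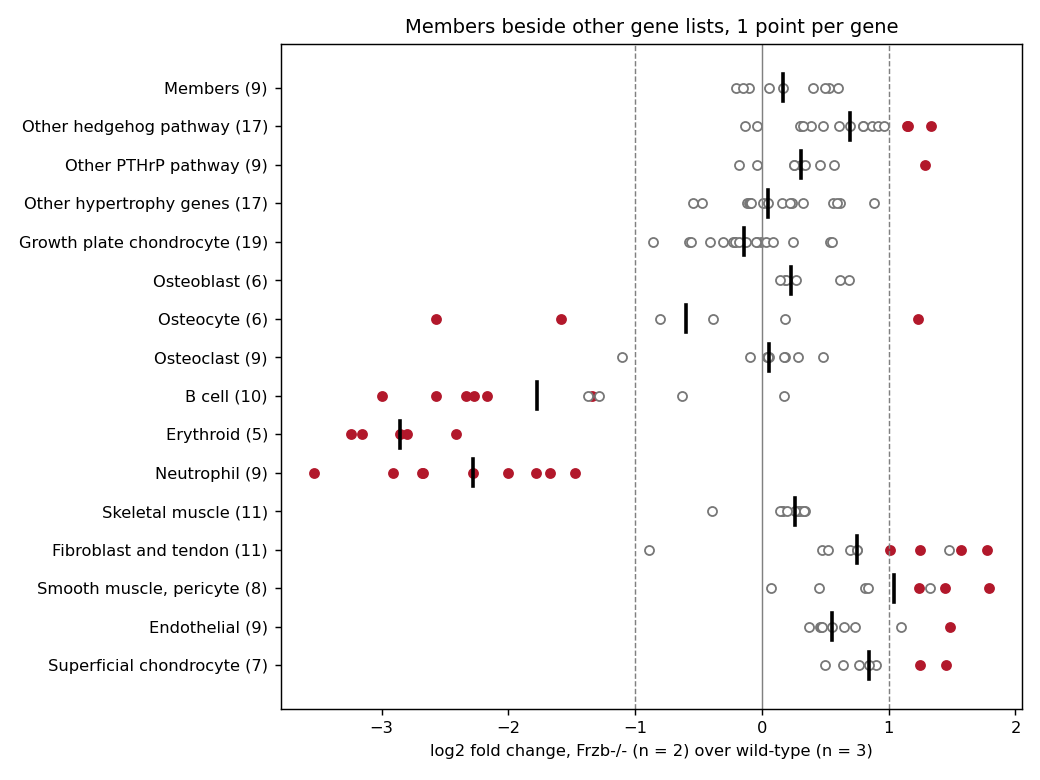
Log2 difference between Frzb-/- animals 14 and 17 and the 3 wild-type animals for each gene at its brightest probe set, by list, with a black bar at the median of each list and filled red points for called genes. Other hedgehog components have 3 called genes and a median of 0.70, and the measured members have 0.

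Markers of the other cells that such a piece can hold were read against the same 9.05% of genes called. Growth plate chondrocyte genes had 0 of 19 called and a median of -0.14, with Matn3 at -0.86 and Epyc at -0.58. Osteoblast genes had 0 of 6 called (median 0.23, Col22a1 at 0.68 and Omd at 0.61), and osteoclast genes 0 of 9 (median 0.05, Itgb3 at -1.10 and Calcr at 0.48). Of 6 osteocyte genes Pdpn rose, at 1.23, and 2 fell, Sost at -2.57 and Mepe at -1.59. Marrow genes called were lower in Frzb-/-, against 6.02% of all genes: 6 of 10 B cell genes (Rag1 at -2.99, Ms4a1 at -2.57), 5 of 5 erythroid genes (Epb42 at -3.25, Rhd at -3.15) and 9 of 9 neutrophil genes (Mmp8 at -3.53, Lcn2 at -2.91). The mean level of the B cell genes was 7.29 to 7.64 in Frzb-/- animals, 9.25 in animal 6 and 8.89 to 9.34 in wild-type animals. Skeletal muscle genes, at 13.72 to 14.12 in Frzb-/- animals, 12.85 in animal 6 and 13.43 to 14.10 in wild-type animals, had 0 of 11 called (Myh2 at -0.39, Myl1 at 0.34). Among connective tissue and vessel genes those called were higher in Frzb-/-, against 3.03% of all genes: 4 of 11 fibroblast and tendon genes (Dpt at 1.77, Fbln2 at 1.57, with Pi16 at -0.89 not called), 3 of 8 smooth muscle and pericyte genes (Myh11 at 1.79, Tagln at 1.44), 1 of 9 endothelial genes (Sox17 at 1.48, with Emcn at 1.10 not called) and 2 of 7 superficial chondrocyte genes (Creb5 at 1.45, Thbs4 at 1.25). Thbs4 is in both the fibroblast and tendon list and the superficial chondrocyte list, and its call is counted in each. The fibroblast and tendon genes averaged 10.92 to 10.95 in Frzb-/- animals, 10.11 in animal 6 and 9.83 to 10.26 in wild-type animals. The other hedgehog components also had both Frzb-/- animals highest and animal 6 within the wild-type range, at 8.60 to 8.69 in Frzb-/- animals, 8.12 in animal 6 and 7.89 to 8.14 in wild-type animals. Within each group the mice ranked differently in the fibroblast and tendon list and in the hedgehog list. The wild-type animals ranked alike in the superficial chondrocyte and hedgehog lists, and the Frzb-/- animals in the endothelial and hedgehog lists. Both Frzb-/- animals were likewise highest for the smooth muscle and pericyte, endothelial and superficial chondrocyte genes. The part of these cell types in the hedgehog, PTHrP and hypertrophy values was not tested.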

How the data were processed

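RNA of 6 mice was hybridised to Affymetrix Mouse Genome 430 2.0 arrays, 1 per mouse. The authors summarised the probes with RMA (affy 1.20.0) and deposited log2 values, used here as given. Control probe sets and those called absent had been taken out before deposit, and detection calls and scanner files were not used here. RMA summarises each probe set separately, so a higher level of a gene than of another was not read as more RNA. The level of a list is the plain mean of the log2 values of its genes. Of the probe sets, 25090 had 1 gene in the platform annotation, 677 had several and 4851 had none, and only the first kind was named. The brightest probe set of a gene is that with the highest mean over the 6 arrays. All 30618 were fitted with limma 3.58.1 in R 4.3.3 (moderated, two-sided, Benjamini-Hochberg adjustment). Animals 14 and 17 formed the Frzb-/- group, a choice settled by setting ratios of group means against the study's table of leading genes, where 26 of 26 genes matched within 0.051 for that pair and 0 to 2 for any other choice. A fit of all 6 arrays in 3 groups gave the contrast of animal 6 with wild-type. A call needed an adjusted p below 0.01 and a log2 difference beyond 1, the thresholds of the study. In the main fit each p sets the group difference against a moderated variance. That variance combines the spread between these few mice (3 residual degrees of freedom) with that of all probe sets (3.904 prior degrees of freedom). Array number limits precision. An exact permutation test of 2 against 3 mice cannot reach 0.05, so none was run.

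The members and lists were chosen with earlier results of these data known. Named were all members at all probe sets, in the pathway lists every called gene and the 2 largest others, in the marker lists the 2 largest differences, and for members spanning at least 1 log2 unit the 3 genes of closest pattern. Pdpn, Pi16, and Smo, Mmp14 and Gnas at dimmer probe sets, were added after their values were seen. The alternatives were animal 6 counted as Frzb-/-, no moderation, trended and robust moderation, array weights, cyclic loess, centring on bright probe sets, animal 6 as its own group in the fit, a brightness filter, an adjusted p of 0.05 with no limit on size, probe sets averaged per gene, and each mouse left out. The fits were tested on simulated data. Python 3.11.15 made the tables and figures.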

Additional observations from a re-analysis of the deposited data

How the results depend on the processing

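Over 14 alternatives, 239 of 261 values of the member probe sets kept their direction and side of the threshold, 20 changed sign, 2 newly passed it and 0 lost it. Those 2 passed only under the looser threshold, and no member was called in the main fit, so none could lose a call. The brightness filter, the changed moderations, the looser threshold and animal 6 as its own group leave every difference unchanged. No sign could turn under them, so the count of kept values is not a measure of stability. With animal 6 counted as Frzb-/-, Ihh was 0.15, Mef2c 1421027_a_at 0.0377 and Mef2c 1451506_at -0.0225. With array weights, Panx3 1456073_s_at was -0.0268 and Hhip 1455277_at -0.0333. As single mice were left out, the difference ran over -0.12 to 0.23 for Panx3 1456073_s_at, -0.17 to 0.56 for Panx3 1454387_at, -0.49 to 0.0872 for Ihh and -0.55 to 0.20 for Ptch1 1439663_at. For Mef2c it ran over -0.74 to 0.55 (1421027_a_at), -0.29 to 0.10 (1424852_at), -0.10 to 0.17 (1451506_at), -0.23 to 0.63 (1421028_a_at) and -0.25 to 0.0709 (1451507_at). The cause was not tested.

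At an adjusted p of 0.05 with no limit on size, 2 of the 19 member probe sets passed, and 1 of the 9 measured members at its brightest probe set. So did 11 of 17 other hedgehog components, 3 of 9 other PTHrP genes and 4 of 17 other hypertrophy genes, all higher in Frzb-/-. Among all probe sets 26.5% passed, and 11.7% of all probe sets passed with Frzb-/- higher. These shares include the dimmer probe sets of a gene, unlike the lists. Counting animal 6 as Frzb-/- or dropping the moderation left 0 calls among other hedgehog components and 0 among other PTHrP genes, but also 0 of all 30618 probe sets, and array weights left 1 hedgehog component, Gpr161. Leaving out single mice gave 0 to 2 calls among other hedgehog components and 0 to 1 among other PTHrP genes. The median of the hypertrophic genes ran over -0.0458 to 0.45 and that of Ihh and Pth1r over -0.19 to 0.16 (0.22 with animal 6), and that of the hedgehog targets over 0.18 to 0.56 (0.22 with array weights, 0.17 under the brightness filter, which left out Gli1). Frzb lost its call, as did all probe sets, with animal 6 counted as Frzb-/- (-3.53 and -3.22, adjusted p 0.0488 and 0.0615) and without moderation (-3.61 and -3.31, adjusted p 0.0595 and 0.0614), and ran over -3.90 to -3.31 and -3.47 to -3.02 as mice were left out, where the dimmer probe set lost its call without animal 17 (-3.16, adjusted p = 0.0109). No paired analysis was possible because the animal numbers pair no mice across the groups.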
